A study of Homo sapiens with 8 samples.

Results

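The Krüppel-like factors (KLFs) described here as members were KLF5, KLF4, KLF2, KLF3, KLF6, KLF9, KLF10, KLF11, KLF13 and KLF16, 10 of the 23459 genes in a count table from Hct116 cells, an established human colorectal carcinoma line. KLF7, KLF8, KLF12 and KLF15 also had enough reads to be tested and are counted below with the other KLF and SP factors. The group was selected on a measured value, since KLF5 had one of the lowest p-values for lenalidomide against DMSO, and the other members were added as relatives of KLF5. All 10 were among the 13925 genes with enough reads to be tested. Total RNA was sequenced from 4 libraries of cells treated with 30 μM lenalidomide for 16 h and from 4 libraries of cells given the solvent DMSO for the same 16 h. Both groups were the same cell line, and the cells of each culture were divided between RNA sequencing and a mass spectrometry measurement of protein turnover that is not analysed here. The sample records only number the replicates. The study calls them biological where it shows the RNA data. It calls the 4 replicates of the parallel protein measurement biological in a figure legend and technical in its methods. It designed some of those 4 as label swaps, with the order of light and heavy amino acids reversed. The sample records do not say which RNA libraries came from them. The spread between libraries may thus be that of separate cultures, of labelling direction or of repeated handling.

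KLFs are DNA-binding proteins with 3 zinc fingers of the C2H2 kind at their carboxyl end, and they bind GC-rich elements and CACCC boxes in promoters. Because the fingers are so alike, members compete for the same sites, and their different amino-terminal parts recruit either coactivators or corepressors. In the intestinal epithelium KLF5 is known from the dividing cells of the crypt and KLF4 from the differentiated cells nearer the lumen. Lenalidomide binds cereblon, the substrate receptor of a cullin ubiquitin ligase, and directs it to proteins that include several C2H2 zinc finger factors. RNA counts do not show whether a KLF protein was degraded.

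Promoter letters were taken from RefSeq on GRCh38.p14, as the 250 bases before an annotated transcription start, and 8 of the 10 members had at least 1 entry, giving 10 windows. KLF3 and KLF10 had no entry. Windows of KLF5, KLF4 and KLF6 are printed to show the elements that KLF proteins are known to bind. The RNA values of KLF5 led to the selection, KLF4 is its intestinal counterpart, and KLF6 is described below by its ratio to KLF5. That ratio kept the groups apart but holds the KLF5 values that led to the selection, and KLF6 by itself overlapped between the groups. Capitals mark GC boxes (GGGCGG) and CACCC boxes (CACCC), each read on both strands, so that CCGCCC and GGGTG are the same elements on the other strand. The KLF5 window is the downstream of its 2 annotated windows and lies at chr13:73058755-73059004 on the plus strand, the KLF4 window at chr9:107489770-107490019 on the minus strand and the KLF6 window at chr10:3785210-3785459 on the minus strand.
KLF5: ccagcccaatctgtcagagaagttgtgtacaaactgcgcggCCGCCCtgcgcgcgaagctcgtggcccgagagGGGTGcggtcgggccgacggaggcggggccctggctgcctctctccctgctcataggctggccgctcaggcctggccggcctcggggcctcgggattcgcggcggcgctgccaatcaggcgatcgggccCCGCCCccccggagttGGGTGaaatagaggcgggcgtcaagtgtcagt
KLF4: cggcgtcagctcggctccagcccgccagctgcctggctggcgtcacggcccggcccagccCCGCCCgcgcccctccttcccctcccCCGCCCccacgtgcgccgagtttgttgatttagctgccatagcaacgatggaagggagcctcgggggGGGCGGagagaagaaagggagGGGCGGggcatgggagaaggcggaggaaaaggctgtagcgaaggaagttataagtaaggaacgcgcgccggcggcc
KLF6: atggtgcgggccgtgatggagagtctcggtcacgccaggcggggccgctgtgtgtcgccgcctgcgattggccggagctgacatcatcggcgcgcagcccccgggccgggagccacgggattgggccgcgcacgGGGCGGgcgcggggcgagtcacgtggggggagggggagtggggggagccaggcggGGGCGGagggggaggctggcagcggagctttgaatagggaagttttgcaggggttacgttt

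The KLF5 window held 2 GC boxes and 2 CACCC boxes, the KLF4 window 4 GC boxes and no CACCC box, and the KLF6 window 2 GC boxes and no CACCC box. A GC box was present in 8 of the 10 member windows, from 7 of the 8 genes, and in 42.6% of all 35116 windows of the same length. A CACCC box was present in 4 of the member windows, from 3 genes, and in 54.7% of all windows. The cyclic AMP response element TGACGTCA occurred only in 1 window of KLF11 (1.65% of all windows), and the letters TATAAA only in the upstream window of KLF5 (10.7% of all windows). No member window held a CArG box, the element of serum response factor, which 1.16% of all windows held. The upstream KLF5 window had no GC box, and its GC content was 40.8% against 70.8% in the printed window. Among members the GC content ran from 32.4% in KLF9, which had neither box, to 86.4% in KLF16, which had 7 GC boxes, and the median of all windows was 58%. Such matches describe letters only, since no binding and no choice of start site was measured.

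The libraries held between 28218471 and 37473413 counts, and every lenalidomide library (33659982 counts at most) was smaller than every DMSO library (35268940 at least). Read levels are therefore given as CPM, counts scaled to the library size and its TMM factor. The cells carried the epithelial markers EPCAM, CDH1, KRT8, KRT18 and KRT19, all 5 of which passed the filter and summed to between 2287 and 2587 CPM with DMSO and between 2211 and 2544 CPM with lenalidomide. None of the 5 haematopoietic markers (PTPRC, CD3E, CD79A, IKZF1 and IKZF3) passed the filter, and their sum stayed between 0.205 and 0.321 CPM with DMSO and between 0.304 and 0.797 CPM with lenalidomide. Of the 6 stromal and endothelial markers, COL1A1 and VWF passed, COL3A1, DCN, PECAM1 and CDH5 did not, and the 6 summed to between 3.02 and 3.78 CPM with DMSO and between 2.77 and 4.41 CPM with lenalidomide.

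To rank the members in cells given DMSO, levels were divided by the exonic length deposited for each gene (RPKM), which does not use the drug comparison. KLF10 and KLF5 were far above the rest, with 28.3 ± 3.31 and 24.4 ± 1.23 RPKM in the DMSO libraries (SD, n = 4). These placed them at the 82.2 and 79.7 percentiles of the genes tested. KLF3, a repressor that binds CtBP, came next with 9.11 ± 0.407 RPKM, and KLF6 had 8.46 ± 0.684 RPKM. KLF13 followed with 6.12 ± 0.550 RPKM, KLF4 with 4.71 ± 0.494 and KLF16 with 4.20 ± 0.193. KLF11, KLF2 and KLF9 were lowest of the members, at 1.99 ± 0.179, 1.41 ± 0.132 and 1.36 ± 0.0561 RPKM, and KLF9 stood at the 23.3 percentile. Outside the members, KLF7 had 1.62 RPKM, KLF12 1.28, KLF15 0.627 and KLF8 0.111 on average with DMSO. In bulk RNA, a gene on in fewer cells and a gene with less RNA per cell cannot be told apart.

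Of the 9 pairs of neighbours in this order, 6 had DMSO ranges that did not overlap over the 4 libraries, which both genes of a pair share. The ranges of KLF3 and KLF6 overlapped (8.64 to 9.57 and 7.68 to 9.32 RPKM), as did those of KLF4 and KLF16 (4.10 to 5.31 and 4.01 to 4.47 RPKM) and those of KLF2 and KLF9 (1.23 to 1.55 and 1.28 to 1.41 RPKM). Within libraries, KLF4 was above KLF16 in DMSO replicates 1 to 4 (4.66 and 4.14, 4.10 and 4.01, 5.31 and 4.18, 4.77 and 4.47 RPKM). The other pairs changed order between libraries. KLF6 was above KLF3 in DMSO replicate 3 (9.32 and 8.64 RPKM), and KLF9 above KLF2 in DMSO replicate 1 (1.38 and 1.23 RPKM). KLF10 was 1.16 times KLF5, and KLF5 in turn was 2.68 times KLF3. With lenalidomide the order of the means was the same but for KLF6, at 9.32 ± 0.920 RPKM, and KLF3, at 9.23 ± 0.421 RPKM, which changed places while their ranges overlapped. KLF5 stood 5.23 ± 0.611 times above KLF4 per length in the DMSO libraries.

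**Figure D1:**
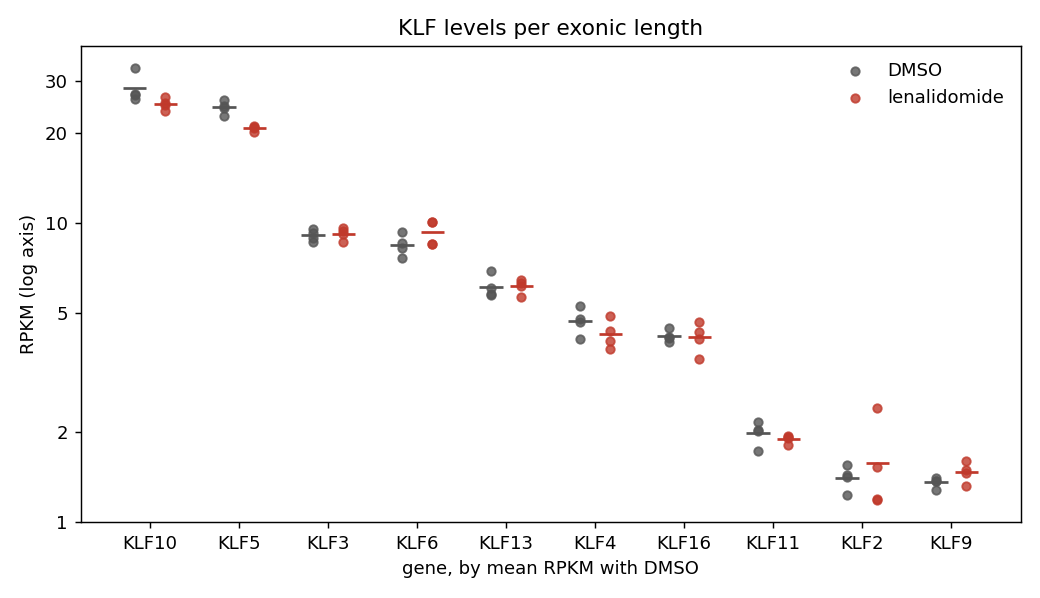
RPKM of the 10 KLF genes on a log axis, ordered by the DMSO mean, with 1 point per library (4 DMSO in grey, 4 lenalidomide in red) and a line at each mean. KLF10 and KLF5 lie above 20 RPKM in every library, and KLF11, KLF2 and KLF9 lie at the bottom with 1.99, 1.41 and 1.36 RPKM on average with DMSO.

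KLF5, which drives proliferation of intestinal epithelial cells, was the member with lower RNA in every lenalidomide library. It had 91.2, 86.1, 87.3 and 80.7 CPM in DMSO replicates 1 to 4 and 74.3, 73.6, 74.7 and 71.4 CPM in lenalidomide replicates 1 to 4. All 4 lenalidomide values lay below the lowest DMSO value, and they were close together, with a coefficient of variation of 1.99% against 5.03% with DMSO. The means were 86.3 ± 4.35 and 73.5 ± 1.46 CPM, a log2 fold change of −0.23 (SE 0.052, 95% interval −0.34 to −0.12), or −14.8%. The unadjusted p of 0.000539 from edgeR's quasi-likelihood test was the 11th lowest of the genes tested and is the value that chose the gene, and its adjusted p was 0.649. Between 2060 and 3407 reads per library lay behind these levels. Depth also differed between the groups, and its part in this value was not tested beyond thinning all libraries to the smallest total, where the log2 fold change of KLF5 was −0.23. KLF5 (Entrez 688) lies at chr13:73629114-73651679 on the plus strand of GRCh37, with no other gene's exons over its own.

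KLF4, known as a brake on the cell cycle in the gut, showed no such separation. Its values were 14.99, 13.19, 17.06 and 15.34 CPM with DMSO and 13.01, 14.05, 12.19 and 15.74 CPM with lenalidomide. Lenalidomide replicate 4 lay above 3 of the 4 DMSO libraries, and the groups overlapped. The log2 fold change was −0.14 (SE 0.094, 95% interval −0.34 to 0.062), and it was −0.083 without DMSO replicate 3. The ratio of KLF5 to KLF4 per length was 5.54, 5.94, 4.66 and 4.79 with DMSO and 5.20, 4.77, 5.58 and 4.13 with lenalidomide, so the balance of these factors overlapped between the groups too. KLF4 lies at chr9:110247133-110252763 on the minus strand of GRCh37, where an annotated gene on the other strand shares exonic bases with it, and no strand setting is named for the counting beyond default parameters.

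**Figure D2:**
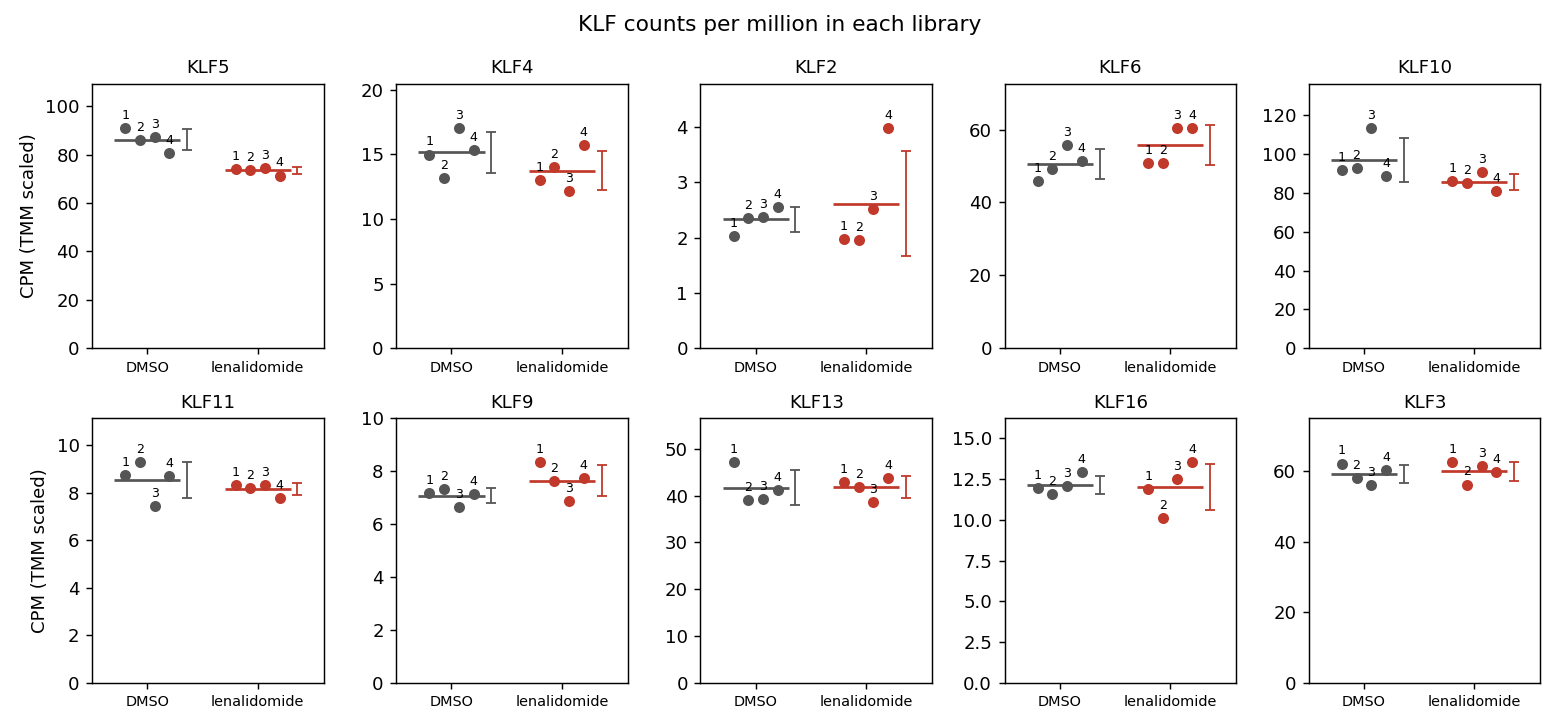
CPM of each KLF gene in the 8 libraries, with replicate numbers above the points, lines at the means and bars of 1 SD beside them (4 DMSO in grey, 4 lenalidomide in red; every axis starts at 0). KLF5 is the gene whose groups do not overlap, KLF10 has 1 DMSO library at 114 CPM and KLF2 has 1 lenalidomide library at 3.99 CPM.

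KLF10, KLF6 and KLF2 are early-response members whose RNA follows growth factor, injury or flow signals within hours in many cells. KLF10, first described as a gene induced by transforming growth factor beta, had 91.7, 93.0, 114 and 88.9 CPM with DMSO and 86.3, 84.9, 90.5 and 81.0 CPM with lenalidomide. Lenalidomide replicate 3 lay above DMSO replicate 4, and the highest value of all was that of DMSO replicate 3. The log2 fold change was −0.18 (SE 0.073, 95% interval −0.33 to −0.018), and it was −0.094 without DMSO replicate 3.

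KLF6, a factor often lost in epithelial tumours, leaned the other way. Its values were 45.9, 49.3, 55.7 and 51.3 CPM with DMSO and 50.9, 51.0, 60.5 and 60.4 CPM with lenalidomide. Only lenalidomide replicates 3 and 4 were above every DMSO library. KLF6 lies at chr10:3818188-3827473 on the minus strand of GRCh37. The log2 fold change was 0.14 (SE 0.076, 95% interval −0.023 to 0.30), and it was 0.093 without DMSO replicate 1.

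KLF2, known for quiescence of endothelial cells and T cells, lies at chr19:16435637-16439496 (GRCh37, plus strand) and rested on 61 to 115 reads per library. It had 2.03, 2.35, 2.37 and 2.56 CPM with DMSO and 1.98, 1.96, 2.52 and 3.99 CPM with lenalidomide. Lenalidomide replicate 4 stood alone, and the coefficient of variation was 36.5% with lenalidomide against 9.36% with DMSO. The log2 fold change of 0.16 (SE 0.20, 95% interval −0.28 to 0.59) turned to −0.11 without that library. KLF6 was also high in that library, and over the 8 libraries the Pearson r of their log2 CPM was 0.70.

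KLF11, KLF9, KLF13 and KLF16 are repressors that, like KLF10, reach histone deacetylases through SIN3A. KLF11 had 8.73, 9.27, 7.45 and 8.69 CPM with DMSO and 8.30, 8.20, 8.33 and 7.77 CPM with lenalidomide, a log2 fold change of −0.066 (SE 0.086, 95% interval −0.25 to 0.12). DMSO replicate 3 was the lowest of its 8 values. KLF9, a gene that glucocorticoid and thyroid hormones induce, had 7.17, 7.34, 6.66 and 7.15 CPM with DMSO and 8.34, 7.63, 6.87 and 7.77 CPM with lenalidomide. Lenalidomide replicates 1, 2 and 4 were above every DMSO library and replicate 3 was not, and the log2 fold change was 0.11 (SE 0.086, 95% interval −0.076 to 0.30). KLF13, first studied as a regulator of the chemokine RANTES in T cells, ranged from 39.0 to 47.1 CPM with DMSO and from 38.6 to 43.8 CPM with lenalidomide. KLF16 ranged from 11.6 to 12.9 CPM and from 10.1 to 13.5 CPM. The log2 fold changes of KLF13 and KLF16 were 0.0057 (95% interval −0.14 to 0.15) and −0.017 (95% interval −0.21 to 0.17). In GRCh37 these genes lie at chr2:10182976-10194963 (KLF11, plus strand), chr9:72999520-73029573 (KLF9, minus strand), chr15:31619038-31727868 (KLF13, plus strand) and chr19:1852398-1863578 (KLF16, minus strand), and KLF11 and KLF16 share exonic bases with annotated genes on the other strand.

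KLF3, the member that recruits CtBP, had 62.1, 58.0, 56.0 and 60.3 CPM with DMSO and 62.4, 56.2, 61.3 and 59.7 CPM with lenalidomide. The groups covered the same range, and the log2 fold change was 0.019 (SE 0.055, 95% interval −0.099 to 0.14), the narrowest interval but that of KLF5. KLF3, at chr4:38665818-38703138 on the plus strand of GRCh37, shares exonic bases with its antisense gene KLF3-AS1.

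As a group the members were spread evenly about 0. The log2 fold change was below 0 for 5 and above 0 for 5, with a median of −0.0057, where all genes tested had a median of 0.0025 with 6781 below and 7144 above. None of the 10 members passed an adjusted p of 0.05 in edgeR's quasi-likelihood test, which 0.0144% of all genes did (2 of 13925), and by DESeq2 and the edgeR likelihood ratio test it was again 0 members. At an unadjusted p under 0.05, KLF5 and KLF10 were lower, as were 0.919% of all genes, and no member was higher, as were 3.26% of all genes. KLF10 lost that call without DMSO replicate 3 or without lenalidomide replicate 1, 2 or 4, and KLF6 was higher at that threshold without DMSO replicate 3 or without lenalidomide replicate 1 or 2. KLF5 alone was lower with no overlap between groups, which held for 0.840% of all genes, and no member was higher with no overlap, which held for 1.24%. By size, KLF5, KLF10 and KLF4 had a log2 fold change below −0.1, where 9.18% of all genes were, and KLF2, KLF6 and KLF9 with one above 0.1, where 18.9% were. Because the same comparison chose the group, these counts only describe it.

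**Figure D3:**
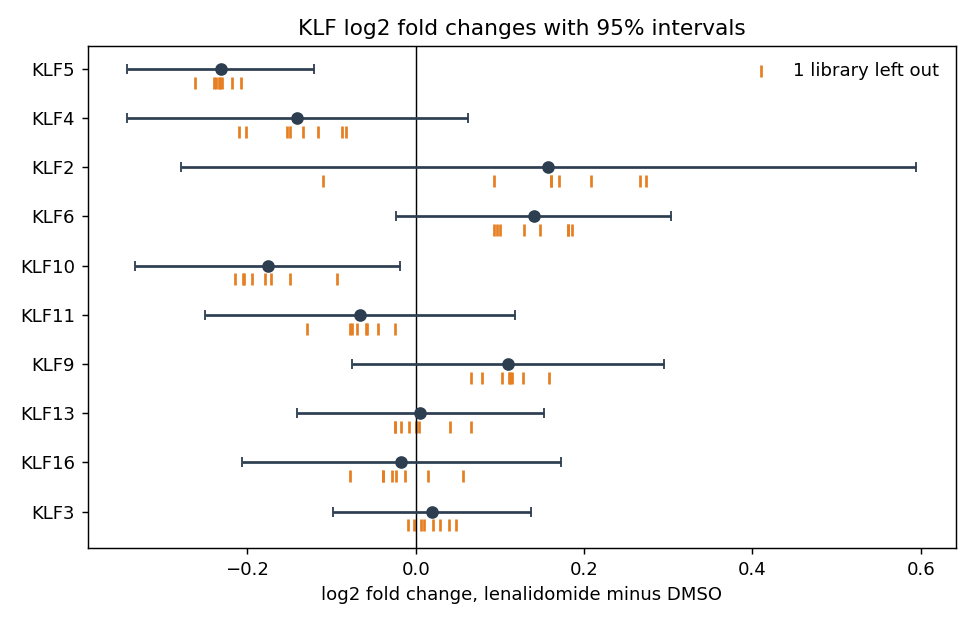
Log2 fold change of lenalidomide against DMSO for each KLF gene, with points for the fit over 8 libraries, bars for the 95% interval and orange ticks for the fits with 1 library left out. The ticks of KLF5 stay between −0.26 and −0.21, while those of KLF2 run from −0.11 to 0.27.

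The make-up of the group was compared as sums, shares and ratios per library. The summed RPKM of the 10 genes was 90.1 ± 3.94 with DMSO (86.9 to 95.6) and 83.9 ± 1.89 with lenalidomide (81.4 to 85.8), and these ranges did not overlap. KLF5 and KLF10 together made up 58.5% ± 1.83 of that sum with DMSO and 54.6% ± 2.0 with lenalidomide (SD, n = 4), and the ranges did not overlap (56.15 to 60.58% and 51.66 to 56.05%). The share of KLF5 alone was 27.1% ± 1.29 and 24.8% ± 0.766, with no overlap either (25.9 to 28.6% and 23.8 to 25.6%). The share of KLF10 overlapped, at 31.3% ± 2.34 and 29.8% ± 1.34. The ratio of KLF5 to KLF6 per length was 3.36, 2.95, 2.65 and 2.66 with DMSO and 2.47, 2.44, 2.09 and 2.0 with lenalidomide. All 4 lenalidomide ratios were below the lowest DMSO ratio, whereas the ratio of KLF5 to KLF10 overlapped, at 0.871 ± 0.0917 with DMSO and 0.832 ± 0.0232 with lenalidomide. These sums and ratios hold the values that chose KLF5 and are given as a description.

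**Figure D4:**
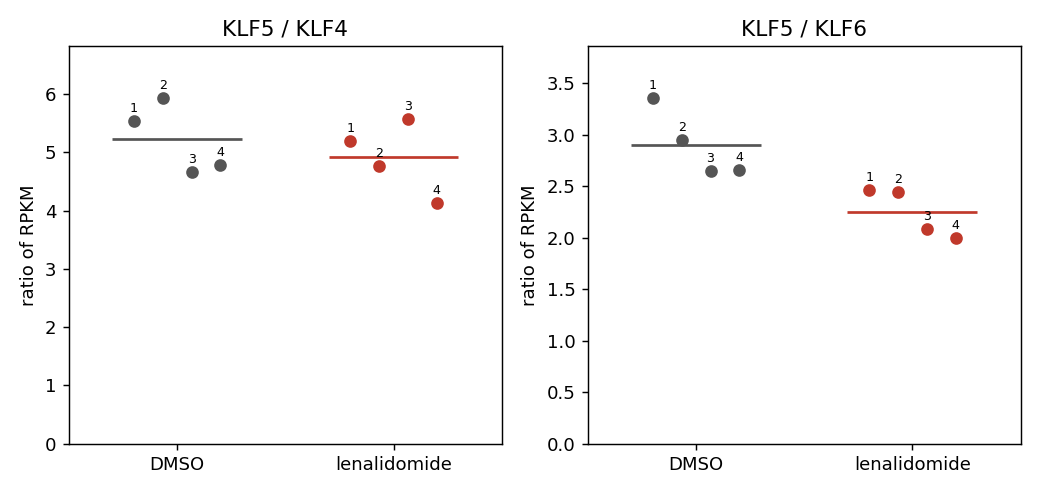
Ratio of KLF5 to KLF4 (left) and of KLF5 to KLF6 (right) in RPKM, with 1 point per library marked by its replicate number and a line at each mean of 4. The KLF5 to KLF4 ratios of the groups overlap, and the KLF5 to KLF6 ratios lie between 2.65 and 3.36 with DMSO and between 2.0 and 2.47 with lenalidomide.

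Coefficients of variation between libraries are listed for each member without removing counting noise, which is larger where reads are few. KLF2 had 61 to 115 reads per library and KLF9 224 to 271, against 2060 to 3407 for KLF5. How far read number set the differences below was not tested. Over all genes tested the median coefficient of variation between DMSO libraries was 7.25%. KLF9 (4.13%), KLF3 (4.46%), KLF16 (4.6%) and KLF5 (5.03%) were below it, and KLF6 (8.09%), KLF13 (8.98%), KLF11 (9.02%), KLF2 (9.36%), KLF4 (10.5%) and KLF10 (11.7%) were above it. With lenalidomide KLF5 (1.99%), KLF11 (3.22%), KLF3 (4.55%), KLF10 (4.6%) and KLF13 (5.39%) had the lowest values, followed by KLF9 (7.87%), KLF6 (9.87%), KLF4 (11.1%), KLF16 (11.8%) and KLF2 (36.5%). Over the 8 libraries, which share the difference in treatment and depth, the log2 CPM of KLF5 had a Pearson r of 0.69 with KLF10, 0.34 with KLF4 and −0.60 with KLF6. With the treatment means removed these were 0.37, −0.24 and −0.34.

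The genes most like KLF5 across the 8 libraries, by Pearson r of log2 CPM, were C17orf80 (0.97), CD83 (0.96), RNF128 (0.96), SECTM1 (0.95) and MAPRE2 (0.95), and 21 genes had an r over 0.9. Their log2 fold changes were −0.091, −0.17, −0.35, −0.48 and −0.096, so the likeness includes the step between the groups. For KLF4 the closest were UCKL1 (0.96), NOV (0.96), HOXC10 (0.93), ATAD3A (0.92) and CSRNP1 (0.92), and 6 genes had an r over 0.9. In that order their log2 fold changes were −0.046, −0.090, −0.43, −0.055 and −0.14. How many of the 13925 genes tested would pass an r of 0.9 by chance was not computed, so the counts of 21 and 6 show no particular likeness. These coefficients describe 8 libraries that share treatment and depth.

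Genes that act on or beside the KLFs were read from lists, each with its count and median, and no gene in any list passed an adjusted p of 0.05 in edgeR's quasi-likelihood test, where the lowest adjusted p was 0.999. DESeq2 and the edgeR likelihood ratio test also passed 0 of the 83 genes tested in these and the marker lists, and at an unadjusted p under 0.05 the quasi-likelihood test had 5 of them, ELK1, EGR1 and DUSP1 lower (0.919% of all genes) and WWP1 and TGFB1 higher (3.26% of all genes). Among the other KLF and SP factors, which share the zinc fingers and the binding sites, 11 of 16 were tested, 3 were below 0 and 8 above, the median log2 fold change was 0.061, and none had an unadjusted p under 0.05 in either direction. KLF1, KLF14, KLF17, SP7 and SP9 had too few reads. The 9 corepressor genes of the CtBP, SIN3, histone deacetylase and NCOR groups lay between −0.030 and 0.21 with a median of 0.012, and the 4 histone acetyltransferase coactivators had a median of 0.097. None of these corepressor or coactivator genes had an unadjusted p under 0.05.

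Of 7 genes known from the turnover of KLF proteins, with a median log2 fold change of 0.044, WWP1 had an unadjusted p under 0.05. WWP1, a HECT ubiquitin ligase that targets KLF5 and KLF2, averaged 69.1 ± 1.86 CPM in the DMSO libraries and 79.2 ± 11.1 CPM in the lenalidomide libraries (SD, n = 4 here and for the list genes that follow), a log2 fold change of 0.20 whose groups overlapped. The 6 genes of the ERK5 and MEF2 route, which drives KLF2, had a median of −0.049 and none with an unadjusted p under 0.05.

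Of the 9 genes of the ERK, ELK1 and EGR1 route, with a median of −0.0066, 2 were lower at an unadjusted p under 0.05. ELK1, a partner of serum response factor that ERK phosphorylates, averaged 31.4 ± 0.884 CPM in the DMSO libraries and 28.6 ± 0.949 CPM in the lenalidomide libraries, a log2 fold change of −0.14, and was the only gene of these lists whose groups did not overlap, which over all genes held for 0.840% lower and 1.24% higher. EGR1, an early-response factor, had 23.5 ± 7.79 and 17.8 ± 3.70 CPM, a log2 fold change of −0.41 with overlapping groups. Its values ran from 18.1 to 34.8 CPM with DMSO and from 14.1 to 22.9 CPM with lenalidomide. Fits with a library left out were read for the KLF members only, so the part of single libraries in this value was not tested.

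In the transforming growth factor beta list of 7, which acts upstream of KLF10 and KLF11, the median was 0.0089. Its ligand TGFB1 had 11.9 ± 0.460 and 13.5 ± 1.29 CPM, a log2 fold change of 0.18 with overlapping groups. The glucocorticoid list, upstream of KLF9, had 6 of 7 genes tested (ZBTB16 was not) and a median of 0.028. DUSP1, a phosphatase that switches off MAP kinases, had 9.24 ± 2.09 and 7.06 ± 1.24 CPM, a log2 fold change of −0.39 with overlapping groups. DUSP1 ran from 7.63 to 12.3 CPM with DMSO and from 5.76 to 8.48 CPM with lenalidomide, and the part of single libraries in this value was not tested either. TGFB1 was higher and DUSP1 lower at an unadjusted p under 0.05, and no other gene of these 2 lists was.

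Other intestinal transcription factors that could be tested numbered 7, with a median of −0.058, 6 of the 7 below 0 and none with an unadjusted p under 0.05. GATA4 and ASCL2 could not be tested, with 0 counts in all 8 libraries. Of 11 genes known as targets of KLF4 or KLF5, among them cell cycle genes, 10 were tested (ALPI was not). They lay between −0.11 and 0.050 with a median of −0.015, 6 were below 0 and 4 above, and none had an unadjusted p under 0.05.

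**Figure D5:**
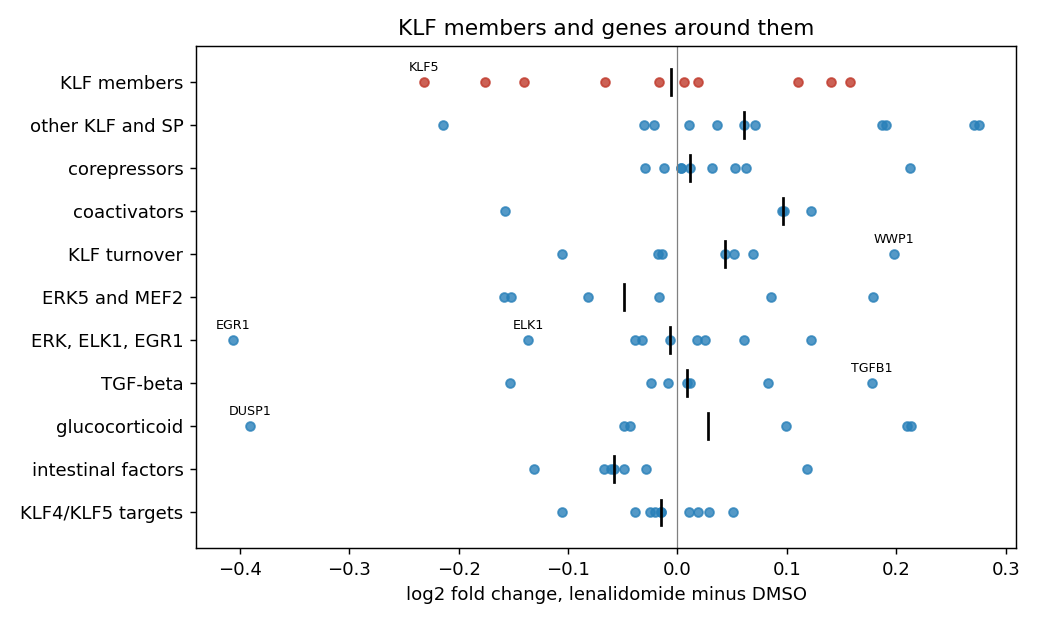
Log2 fold change of lenalidomide against DMSO for the 10 KLF genes (red) and the genes of 10 lists around them (blue), with a black line at each median and names on KLF5 and on the list genes with an unadjusted p under 0.05. The list medians lie between −0.058 and 0.097, and DUSP1 and EGR1 have the lowest values of all, −0.39 and −0.41.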

How the data were processed

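RNA counts were available for 8 Hct116 libraries, 4 with DMSO and 4 with lenalidomide, grouped by sample title. Alignment to hg19 used QuasR, and reads over the exons of UCSC known genes were counted by the authors, who deposited raw counts per gene with the exonic width of each gene in bases. The submitters' processing notes also name bcl2fastq 2.17. QuasR is stated to have run with default parameters, and no strand setting is named beyond that. For reads from a gene and its antisense partner this means that they cannot be told apart.

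The fit used edgeR 4.0.16, with limma 3.58.1, in R 4.3.3. Genes were kept by filterByExpr (minimum count 10, minimum total 15), which left 13925, scaled by TMM (factors 0.971 to 1.02) and compared by glmQLFit and glmQLFTest with Benjamini-Hochberg adjustment over all genes at 0.05. The common dispersion was 0.00573. CPM used TMM library sizes, and RPKM divided them by exonic width. Log2 CPM for correlations used an offset of 0.5. Library totals ran from 28218471 to 37473413. Groups not overlapping means that all 4 values of one treatment lie beyond all 4 of the other. Alternatives were RLE scaling, DESeq2 1.42.0, the edgeR likelihood ratio test, other filters and thresholds, thinning, a replicate block and leaving out each library.

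The members and gene lists were chosen with earlier results of these data known. Genes named are the 10 members, the other KLF genes tested, the marker genes and some genes not tested. List genes are named where they had an unadjusted p under 0.05 or non-overlapping groups (up to 3 per list). The 5 genes most like KLF5 and KLF4 are named too. Gene positions come from GENCODE on GRCh37 and promoter sequences from RefSeq on GRCh38.p14. Protein sequences were not analysed here. Growth in serum-supplemented DMEM is given in the sample records, while the methods of the study describe DMEM with dialysed serum and added arginine and lysine, exchanged for medium with the heavy amino acids when the drug was given. In the label swap replicates of the protein measurement this order of labels was reversed.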

Additional observations from a re-analysis of the deposited data

Results flagged for a closer look

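KLF10 in DMSO replicate 3 stood apart from its group, at 113.6 CPM where the other 3 DMSO libraries had 88.9 to 93.0 CPM. The gap to the nearest library was 0.833 of the range of the 4 values. Among the 20 groups of 4 values examined (10 genes in 2 treatments), chance is expected to give about 1 such value. Without this library the log2 fold change of KLF10 was −0.094 in place of −0.18.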

How the results depend on the processing

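Of 150 values of the members' log2 fold changes over 15 alternatives each, 140 kept their sign and their side of the threshold and 10 changed sign, all in KLF13, KLF3, KLF16 and KLF2. KLF13 was −0.0032 when all genes with any count entered. With 1 library left out, the log2 fold change of KLF13 ran from −0.025 to 0.066 (−0.025 without DMSO replicate 2, −0.024 without DMSO replicate 3, and −0.0080 and −0.017 without lenalidomide replicates 1 and 4), that of KLF3 from −0.0094 to 0.049 (−0.0094 without DMSO replicate 3, −0.0014 without lenalidomide replicate 1), that of KLF16 from −0.078 to 0.056 (0.014 without DMSO replicate 4, 0.056 without lenalidomide replicate 2), and that of KLF2 from −0.11 to 0.27, the first without lenalidomide replicate 4. The cause was not tested. KLF5 stayed between −0.26 and −0.21 with 1 library left out. Its adjusted p was 0.0532 by DESeq2, 0.0937 by the edgeR likelihood ratio test, 0.154 with a replicate block and from 0.342 to 0.9997 with edgeR when 1 library was left out. No member passed the threshold in any of these. By edgeR's quasi-likelihood test KLF10 had an unadjusted p over 0.05 without DMSO replicate 3 (0.0910) or without lenalidomide replicate 1 (0.0515), 2 (0.0523) or 4 (0.0770), and KLF6 one under 0.05 with the replicate block (0.0272), with thinning (0.0475) and without DMSO replicate 3 (0.0254), lenalidomide replicate 1 (0.0427) or 2 (0.0359). With libraries thinned to the smallest total KLF2 was 0.058. The count of all genes past the threshold was 2, and 9 by DESeq2, 12 by the likelihood ratio test, 6 with the replicate block, 4 when all genes with any count entered, and 1 to 2 with 1 library left out. Members lower with no overlap numbered 1 to 2 with 1 library left out (KLF11 joined KLF5 without DMSO replicate 3, and KLF10 without DMSO replicate 4 or lenalidomide replicate 3), and members higher 0 to 1 (KLF9 without lenalidomide replicate 3). Leaving out a library can only narrow the range of its group, apart from small shifts in scaling. KLF5 was therefore bound to stay apart, and these counts could scarcely fall. The share over all genes was not computed for these fits. The median of the members ran from −0.061 (without lenalidomide replicate 4) to 0.027. Same-numbered libraries had correlations of their deviations of 0.052, −0.0075, 0.0032 and 0.31. Values for differently numbered libraries were not set beside them, so these cannot show whether the numbers pair the libraries. The main fit used no block. With the replicate block KLF5 kept a log2 fold change of −0.23. The unadjusted p of KLF10 by edgeR's quasi-likelihood test was 0.00965 with the block and 0.0314 without it. The planned protein comparison was not run. Depth limits KLF2 most, with 61 to 115 reads per library.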
